A study of Mus musculus with 4 samples.

Results

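The HoxD cluster and its neighbour Evx2 carried 10 CTCF peaks in mouse calf muscle, out of 42163 in the authors' conservative peak list. The 10 were chosen by position alone: a peak belonged when its summit, the point of highest signal, lay between 50 kb before the first and 50 kb after the last Hoxd gene, at chr2:74618310-74815142 (mm10). They are numbered here from the Evx2 side to the Hoxd1 side. The listed genes were Evx2, Hoxd13, Hoxd12, Hoxd11, Hoxd10, Hoxd9, Hoxd8, Hoxd4, Hoxd3 and Hoxd1.

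CTCF is a zinc finger protein that binds a directional DNA motif and holds cohesin, the ring complex that extrudes chromatin loops. Loops form mostly between sites whose motifs point towards each other, so the strand of each motif is part of what a CTCF map records. The HoxD cluster sits between a pair of long regulatory landscapes with limb enhancers, and CTCF sites inside it are known to take part in dividing the genes between those landscapes. Hoxd genes are switched on in order along the cluster during axis and limb formation. Evx2, the even-skipped type homeobox gene next to Hoxd13, is transcribed from the opposite strand to the Hoxd genes.

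Chromatin immunoprecipitation with an antibody to CTCF, followed by sequencing, was done on whole gastrocnemius, the large calf muscle, of female B6CASTF1/J mice aged 2 months. B6CASTF1/J is a hybrid strain, and the lists do not separate its alleles. The 4 libraries were 2 technical replicates of pool E and 2 of pool F, each pool made from 2 tissue samples, and both pools carry the same donor label. The lists used here are the conservative list, from comparing the pools, a combined list, and 1 list for each pool, all with technical replicates merged. There is therefore no error between replicates, no test is given, and the number of reads behind each peak is unknown. Whole muscle mixes cell types, and CTCF peaks do not allow the tissue label to be checked against markers. More bound cells and stronger binding per cell cannot be told apart.

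Sequence at the sites is shown first because the strands and the missing motifs are what set the sites apart from one another. Each of the first 6 lines is 30 bases of reference sequence (RefSeq GRCm38.p6, the mm10 assembly), read 5′ to 3′ on the strand of the motif. Capitals mark the best match to the CTCF core consensus, 14 positions searched on both strands. A match could have up to 2 mismatches, and its centre had to lie no more than 50 bp from the summit.
Site 1, minus strand, chr2:74655517-74655546: tcctgctgCCGCTAGGGGGCGCcccggggg
Site 4, minus strand, chr2:74673168-74673197: ccaaacgcCCAGGAGATGGCGAgcgtgctc
Site 5, plus strand, chr2:74686472-74686501: ttctacagCCACACGAGGGCGCgctcatgt
Site 8, plus strand, chr2:74697762-74697791: cgccgccgCCACCAGGGCGGGCtgagccgg
Site 9, plus strand, chr2:74702387-74702416: gcatttggCCACTAGAGAGCGCtgttgctc
Site 10, plus strand, chr2:74715913-74715942: agctttgtCCAGGAGGAGGCGCtgtaggac
Sites 2 and 7 had no such match, and capitals there mark the closest stretch, with 3 mismatches.
Site 2, minus strand, chr2:74661991-74662020: cgaggaaaACAGATGGGGGCGCcaaatgac
Site 7, minus strand, chr2:74694219-74694248: cttactgaTCTCTAGGCGGCGCtcgcgggt
Sites 3 and 6, which neither this search nor the weight matrix described with the motif counts called, are shown as 41 bases of the plus strand centred on the summit, with no capitals. The closest stretch had 4 mismatches at site 3 and 3 mismatches at site 6, as many as at sites 2 and 7.
Site 3, plus strand, chr2:74663751-74663791: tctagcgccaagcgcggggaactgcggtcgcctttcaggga
Site 6, plus strand, chr2:74691754-74691794: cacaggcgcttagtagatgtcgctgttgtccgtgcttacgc

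The 10 summits spanned 60.4 kb, from inside Evx2 to the first part of Hoxd3. The window held 5.08 peaks per 100 kb, against 1.65 per 100 kb over chromosomes 1 to 19 and X outside assembly gaps. Neighbouring summits in HoxD were 1760 to 13542 bp apart, with a median of 5291 bp, while the median over all neighbouring summits was 21399 bp. The last 49.2 kb of the cluster, from site 10 to the end of Hoxd1, held no summit.

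**Figure D1:**
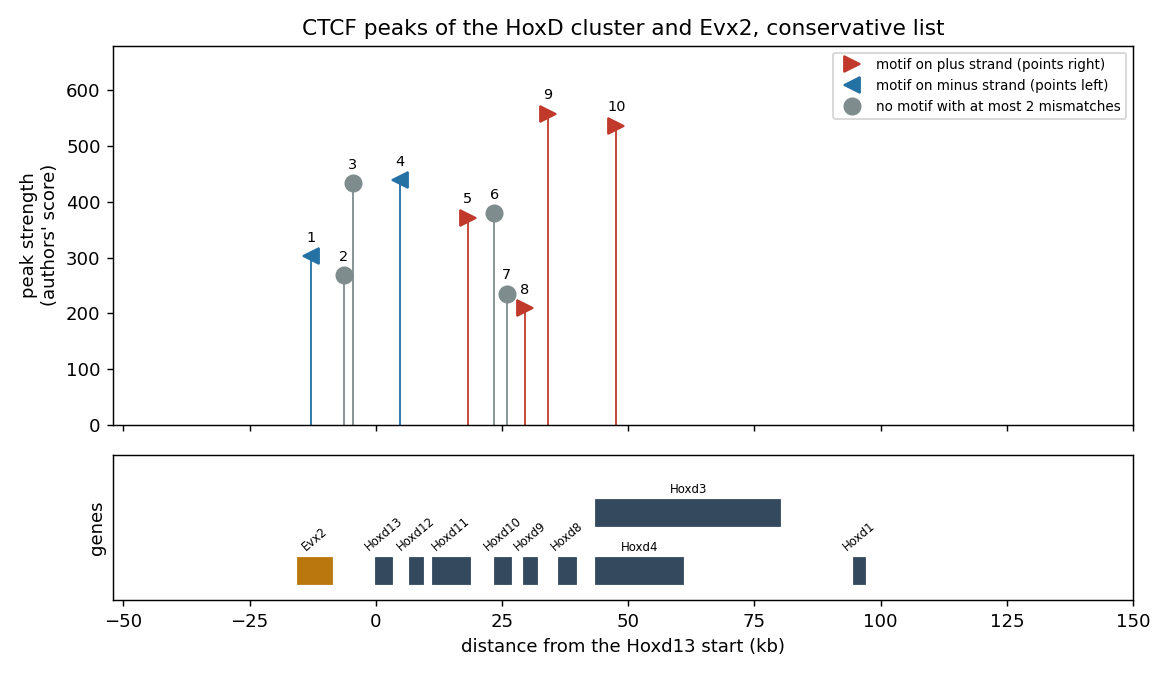
Map of the 10 CTCF sites along HoxD, with distance from the start of Hoxd13 in kb on the horizontal axis and the authors' peak strength on the vertical axis. Arrows give the strand of each motif and boxes the genes. The sites stop at 47.63 kb, and the tallest is site 9 at 558.6.

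Peak strength in the conservative list is the authors' value for each peak and has no stated scale. It was 208.5 to 558.6 over the 10 sites, with a median of 375.7, against a median of 245.6 over all peaks. Of the 10 sites, 8 were above that median. The 2 tallest were sites 9 and 10, near Hoxd8 and Hoxd3 and 13542 bp apart, the largest gap between neighbours, and the 2 lowest, sites 7 and 8, near Hoxd10 and Hoxd9.

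Starting at Evx2, site 1 (chr2:74655412-74655718) lay in the exon that holds the gene's 3′ UTR, 52 bp beyond the last coding base. Its strength was 302.1, above 57.4% of the list. The peak held a second match to the consensus on the same strand, so that motif centres stood 35.5 bp to one side of the summit and 33.5 bp to the other. Site 2 (chr2:74661894-74662126) was 2454 bp upstream of the Evx2 start and had a strength of 267.9, above 53.0% of the list. These were the sites nearest to Evx2, one inside the gene and one upstream of its start.

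Site 3 (chr2:74663633-74663908) lay between Evx2 and Hoxd13, 4214 bp upstream of the Evx2 start and 4539 bp upstream of the Hoxd13 start. Hoxd13 is required for digits and the external genitalia. With a strength of 433.4, site 3 was above 75.2% of the list although no match to the consensus was found in it. Site 4 (chr2:74673023-74673315) lay between Hoxd13 and Hoxd12, 1562 bp after the end of the first and 1852 bp before the start of the second, at a strength of 438.4. Hoxd12 acts with Hoxd13 in the digits.

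Site 5 (chr2:74686349-74686628) fell in an exon of a noncoding transcript of Hoxd11, a gene that patterns the forearm together with Hoxa11, and also in an intron of Gm28309. Its strength was 371.6. Site 6 (chr2:74691636-74691902) was 150 bp upstream of the start of Hoxd10, a gene that patterns hindlimb motor neurons, and had a strength of 379.8. Site 7 (chr2:74694109-74694347) was in a coding exon of Hoxd10, at 235.1. Hoxd10 was thus the one listed gene with a site at its start and another inside its coding sequence. The weaker of these, site 7, was the only site below 50% of the list other than site 8.

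Site 8 (chr2:74697675-74697857) was 51 bp into Hoxd9, in the 5′ UTR, and was the weakest at 208.5, above 44.4% of the list. It was also the narrowest peak, 183 bp wide. Site 9 (chr2:74702231-74702559), between Hoxd9 and Hoxd8, was the strongest at 558.6, rank 2368 of the list. It lay 2189 bp after the end of Hoxd9 and 2218 bp before the start of Hoxd8. Neighbouring sites 8 and 9 therefore held the lowest and the highest strength of the cluster.

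Site 10 (chr2:74715764-74716119) was the last, 191 bp from the start of Hoxd3os1, an antisense transcript, and in introns of Hoxd3 and Hoxd4 transcripts. Its strength of 536.4 was above 91.3% of the list. Hoxd3 and Hoxd4 pattern the cervical vertebrae, and their outermost annotated starts almost coincide, so 1 summit is the nearest for both. The GENCODE start of Hoxd4 was 4010 bp from it, and the nearest RefSeq start of Hoxd4 was 6039 bp away. Hoxd1, which acts in pain-sensing neurons, began 47041 bp beyond site 10.

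Of the 10 listed genes, 8 had a summit within 5000 bp of the start, against a background of 37.4% of 21755 protein-coding genes. The exceptions were Hoxd11, at 6396 bp, and Hoxd1. The nearest annotated transcript start of Hoxd11 was 4160 bp from a summit. At 1000 bp the count was 2, Hoxd10 and Hoxd9. In the promoter windows given by RefSeq, which run from upstream of each start to just past it, 1 of the 11 windows of listed genes, that of Hoxd9, held a match to the consensus on either strand, against 14.4% of all 32851 windows.

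The consensus was found at 6 of the 10 HoxD summits, against 77.6% of all summits and 3.17% of windows displaced by 2000 bp. No HoxD site had an exact match. Sites 1 and 9 had 1 mismatch, and sites 4, 5, 8 and 10 had 2. Over all summits the best match was exact in 12.2%, had 1 mismatch in 32.9% and 2 mismatches in 32.5%.

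A second model of the motif, a weight matrix of 20 positions learned from summits on odd-numbered autosomes, called 7 of the 10, against 86.8% of all summits. It called sites 2 and 7, which the consensus missed, and left out site 8, whose score of 7.0 was below the limit of 7.71. Sites 1 and 9 had the highest matrix score, 16.81 each. By either model 8 sites had a motif, and sites 3 and 6 had none, with matrix scores of 2.62 and 2.39.

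Sites 3 and 6 were not weak peaks. Among all summits 12.2% had neither a consensus match nor a matrix call. Among the 5371 summits within 10% of the strength of site 3 that share was 5.01%, and among the 4320 within 10% of site 6 it was 6.62%.

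By the consensus, the strands of the 6 motifs divided the cluster between sites 4 and 5. Sites 1 and 4, around Evx2 and Hoxd13, had motifs on the minus strand, and sites 5, 8, 9 and 10, from Hoxd11 to Hoxd3, had motifs on the plus strand, the strand of the Hoxd genes. Over all 32727 summits with a motif, 49.7% were on the plus strand. Neighbouring motifs gave 4 tandem pairs and 1 divergent pair, sites 4 and 5, which stood 13322 bp apart between Hoxd13 and the end of Hoxd11. No neighbouring pair was convergent.

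The matrix also placed site 2 on the minus strand, next to site 1. It differed at site 7, called on the minus strand amid plus-strand sites 5 and 9, which made sites 5 and 7 a convergent pair and sites 7 and 9 a divergent one. At site 8, which the matrix did not call, its best score was also on the minus strand, opposite to the consensus match. With 3 mismatches allowed in the consensus, site 7 was also on the minus strand. The change of strand between sites 4 and 5 was present with both models.

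The surroundings of HoxD were bare of summits. From site 1 towards Lnpk the next summit was 355 kb away, a gap longer than 97.6% of those between neighbouring summits. From site 10 towards Mtx2 it was 249 kb away, longer than 96.1%. Both flanking peaks were strong, at 508.8 and 562.4, and each had an exact match to the consensus, in capitals in these 30-base lines.
Towards Lnpk, plus strand, chr2:74300440-74300469: aacaatgaCCAGTAGGTGGCGGtccagcca
Towards Mtx2, minus strand, chr2:74964529-74964558: aggagcctCCAGCAGGGGGCACccttttgc
The plus-strand motif on the Lnpk side and the minus-strand motif of site 1 were convergent across their gap, and so were the plus-strand motif of site 10 and the minus-strand motif on the Mtx2 side.

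Within 800 kb of the Hoxd13 start on both sides, a distance chosen after the values were seen, there were 29 summits, 10 of them the HoxD sites. On the Mtx2 side of HoxD, 8 of 9 summits had minus-strand motifs and 1 a plus-strand motif. On the Lnpk side, 4 of 10 had plus-strand motifs, 4 minus-strand motifs and 2 no motif. The Mtx2 side was thus nearly uniform in strand, and the Lnpk side was not.

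**Figure D2:**
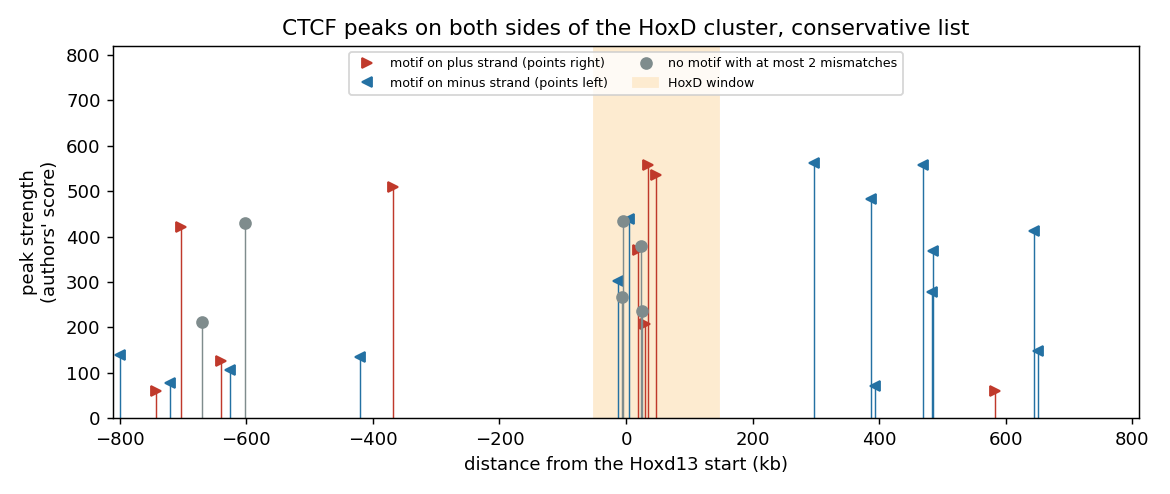
CTCF summits within 800 kb of the Hoxd13 start, with distance in kb on the horizontal axis and the authors' strength on the vertical axis, by motif strand. The shaded window holds 10 of the 29 summits, and gaps of 355 kb and 249 kb separate its outermost sites from their neighbours.

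Among 10 genes of the flanks listed for comparison (Lnpk, Atp5g3, Atf2, Chn1, Mtx2, Hnrnpa3, Nfe2l2, Agps, Ttc30b and Pde11a), 2 had a summit within 5000 bp of the start. These were Hnrnpa3, 596 bp from a summit of strength 38.94, and Nfe2l2, 92 bp from one of strength 75.1. The summit nearest to Lnpk was 76132 bp from its start, and that nearest to Mtx2 109864 bp.

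HoxD sites lay in sequence rich in CpG. The 101 bp around each summit held 5 to 15 CpG, with a median of 7, against a median of 1 over all summits. The lowest count of these sites, 5, was taken as a cutoff, so every HoxD site reaches it by construction. At least 5 CpG were found at 15% of all summits. Site 1, in the Evx2 3′ UTR exon, held the most, 15, at a GC content of 82.2%.

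Nearness to gene starts was not shared by all of these sites. The 7 sites beyond 1000 bp of any gene start held at least 5 CpG, which the choice of that cutoff fixed. Over the 36217 such summits in the list the median was 1, and 8.02% held at least 5. Median GC content was 60.9% in HoxD and 51.5% over all summits. No HoxD summit lay in a masked repeat, against 19.7% of all summits.

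Pool E and pool F each had a peak at every HoxD site. The conservative list comes from comparing the pools, so this was largely fixed by the choice of list. The same holds for the background peaks. With a reciprocal overlap of 50% as the rule, 10 of 10 sites had a pool E partner, against a background of 87.8% of all conservative peaks, and 10 of 10 had a pool F partner, against 66.2%. Partner summits lay at a median of 4.5 bp from the conservative summit in pool E, at most 19 bp, and 1 bp in pool F, at most 22 bp.

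Strength was higher in pool E than in pool F at all 10 sites, as over the list as a whole. Site 9 had 324.5 in pool E and 239.0 in pool F, site 10 had 318.2 in pool E and 215.2 in pool F, and the remaining 8 had 148.7 to 279.8 in pool E and 63.86 to 168.2 in pool F. Site 8 was the weakest of the 10 in both pools, at 148.7 in pool E and 63.86 in pool F. The order of the sites was nearly the same in the pools, with a Spearman rho of 0.976 over the 10 sites. The sites share libraries and come from a list that keeps peaks whose ranks agree between these pools. The rho is therefore given only as a description.

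**Figure D3:**
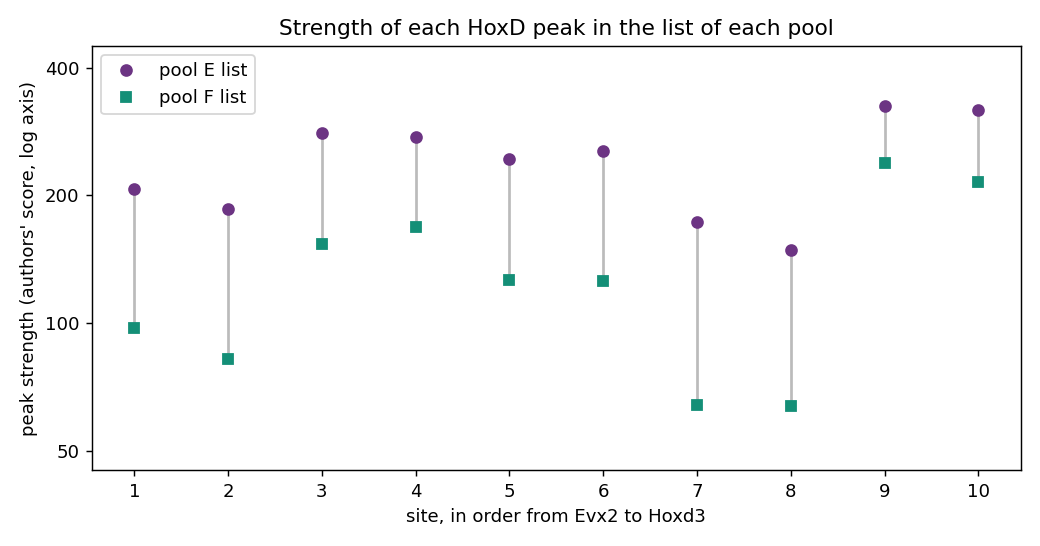
Strength at each of the 10 HoxD sites as called in pool E and in pool F, with the sites along the horizontal axis and the authors' strength on a vertical log axis. Pool E is above pool F at every site, and sites 9 and 10 are highest in both.

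The ranked list behind the conservative list gives 2 input strengths for each peak, which equalled the pool E and pool F list strengths at all 10 sites. The log2 ratio of the first input to the second, pool E over pool F, was 0.44 to 1.43 over the HoxD sites, with a median of 0.98. Over all 42178 peaks past the threshold the median was 1.03, with an SD of 0.39 between single peaks. The ratio was lowest at the strongest site, site 9 (0.44), and highest at site 7 (1.43), inside Hoxd10.

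Compared with peaks within 10% of its own strength, site 9 was lower, at 0.44 against their median of 0.54 (SD 0.12 between peaks). Site 10, at 0.56, was close to the median of 0.57 for peaks of its strength (SD 0.12). Site 7 was at 1.43 against 1.18 (SD 0.25) and site 4, between Hoxd13 and Hoxd12, at 0.71 against 0.76 (SD 0.16). Apart from site 7, all 10 sites lay less than 1 SD from the median of peaks of like strength.

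Called and uncalled candidates were far apart in strength at HoxD. The ranked list held 23 candidates in the window, and 10 passed an irreproducible discovery rate (IDR) of 0.05, a measure of how well the inputs agree in rank, against 41.0% of 102748 candidates in all. The 10 that passed had strengths of 208.5 to 558.6, and the 13 that failed had 11.81 to 41.59, with a median of 21.21. The median of all 60570 failed candidates was 19.51. Over the whole list the ranges overlapped, at 11.37 to 737.3 for failed and 11.48 to 684.0 for passed candidates. Whether the separation at HoxD differs from other windows was not tested. The failed candidate of strength 41.59 overlapped the end of the peak of site 10, with its summit just past that end. Beyond this overlap, over the rest of Hoxd3 and Hoxd1, this list held 0 candidates. The pools' own ranked lists held weak ones there, 3 in pool E with strengths of 6.757 to 11.25 and 2 in pool F with 10.28 to 13.37, and none of these is in a thresholded list.

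**Figure D4:**
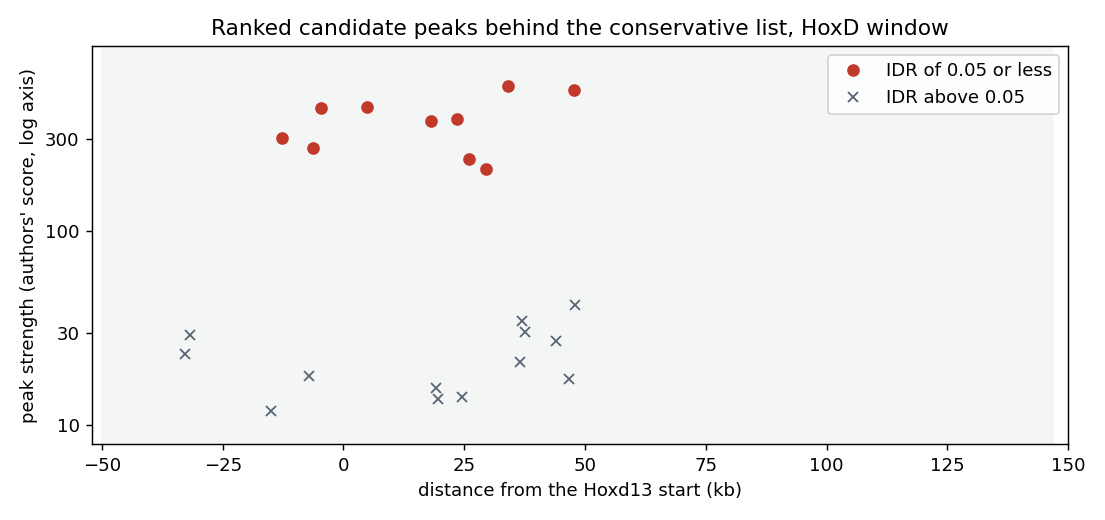
Strength of the 23 ranked candidates in the HoxD window against distance from the Hoxd13 start in kb, on a log axis. The 10 that passed the IDR threshold lie at 208.5 and above, and the 13 that failed at 41.59 and below.

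Single pools added a few weak peaks. Pool E had 14 summits in the window and pool F 11, and 2 of pool E and 1 of pool F overlapped none of the 10 sites. All of these were at the start of Hoxd8: in pool E at 219 and 537 bp from it, with strengths of 20.86 and 13.16, and in pool F at 604 bp, with 19.94. Pool E also had a peak of strength 13.88 overlapping site 8 and a second summit of 37.05 in the region of site 10. The Hoxd8 start was therefore listed by both pools at a low level, and was in neither the conservative nor the combined list.

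The other Hox clusters, counted over the same kind of window, are given side by side and no difference was tested. The HoxD window had 10 summits, HoxA 10, HoxB 13 and HoxC 5, or 5.08, 4.87, 4.75 and 2.32 per 100 kb. Without the flanks, from the first to the last Hox gene, the counts were 7, 8, 11 and 5. A summit within 5000 bp of the start was found for 7 of 9 Hoxd genes, 7 of 11 Hoxa genes, 6 of 10 Hoxb genes and 3 of 9 Hoxc genes. A consensus match was found at 6 of 10 summits in HoxD, 7 of 10 in HoxA, 12 of 13 in HoxB and 3 of 5 in HoxC. Motifs with and against the direction of the genes numbered 4 and 2 in HoxD and 4 and 3 in HoxA. In HoxB they numbered 4 and 8, and in HoxC 2 and 1. A change of strand along the cluster was not particular to HoxD. In HoxA the motifs at −45.18 and 3.76 kb from the Hoxa13 start were against the genes. From 20.32 kb on they ran with the genes, except at 31.28 kb.

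HoxD had the lowest of the 4 median strengths, 375.7, against 468.2 in HoxA, 400.3 in HoxB and 458.6 in HoxC. It had longer gaps to the next summit outside, 355 and 249 kb, than HoxA (152 and 184 kb), HoxC (136 and 79 kb) and HoxB (12.1 and 31.0 kb). These gaps start at the outermost summit of each window, not at the genes. In HoxB those summits lay outside the genes, at −48.53 and 213.59 kb from the Hoxb13 start, and in HoxA one lay at −45.18 kb from the Hoxa13 start. Summits rich in CpG were not particular to HoxD: the median in 101 bp was 7 in HoxD, 7.5 in HoxA, 7 in HoxB and 4 in HoxC.

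**Figure D5:**
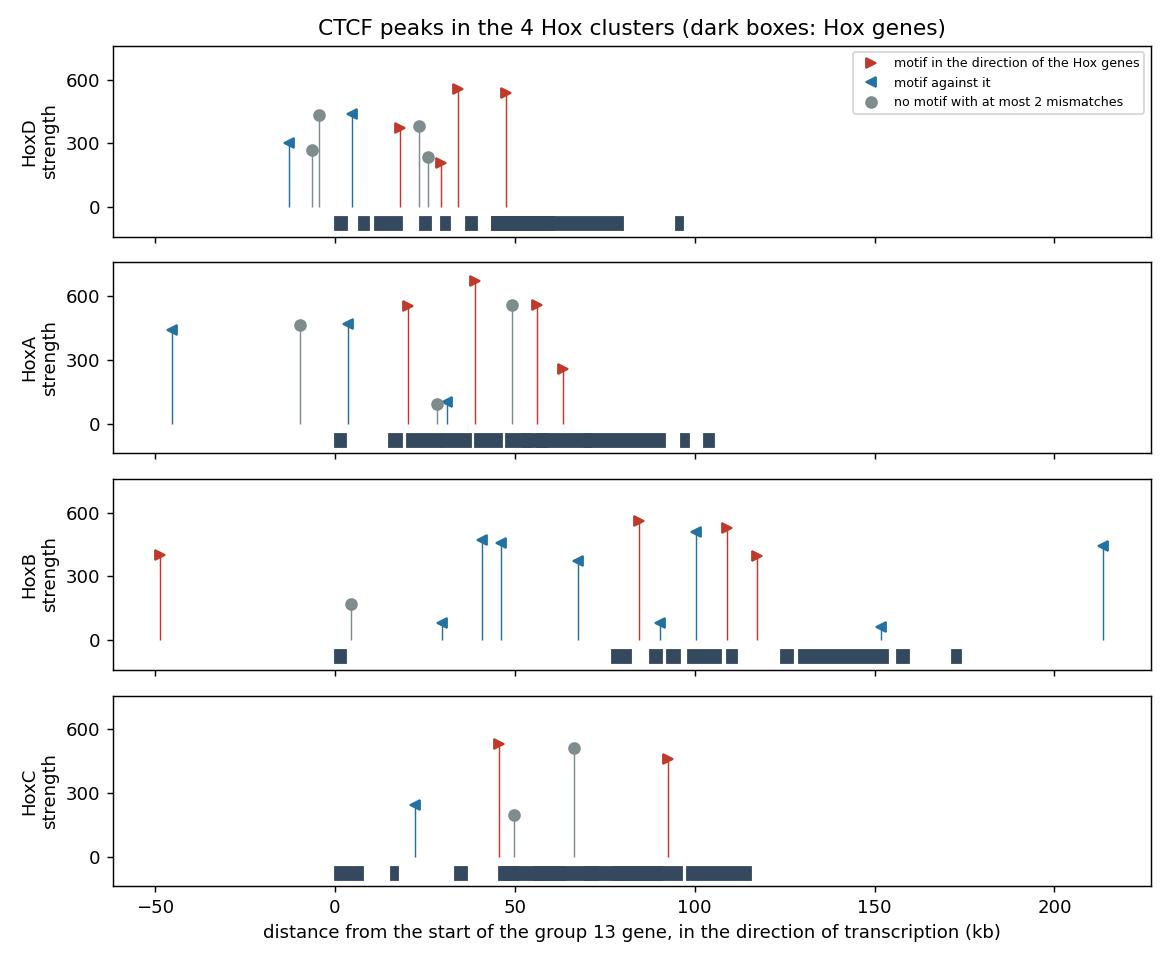
Summits of the 4 Hox clusters, each row 1 cluster with HoxD at the top, positioned by distance from the start of the group 13 gene in kb along the direction of the genes, with motif strand marked. HoxD holds 10 summits and HoxC 5.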

How the data were processed

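CTCF was profiled by ChIP-seq in pools E and F of gastrocnemius. Per the labels and the notes deposited with them, the authors called peaks on mm10 with technical replicates merged and 1 control, then applied the IDR. The caller, aligner and versions are not given in the sources used here. The deposited strength is a score of unstated scale, and the IDR is deposited as its −log10. Which pool is which input of the ranked list is not labelled, and was read from equal strengths.

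Summits were placed on GENCODE M21 genes, with sequences and promoters from RefSeq (GRCm38.p6). Partners were found with bedtools 2.31.1, and the rest was computed with Python 3.11.15, numpy 2.4.6 and pandas 2.3.3. The matrix used a pseudocount of 1 and a score limit passed by 5% of displaced windows, and the motif search was tested on simulated sequence. CpG and GC were counted in 101 bp.

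The rule for members used position alone, but members, windows and gene lists were chosen with earlier results of these data known. Every listed gene and every summit of the window is named. Alternatives changed the list, the motif rule, the overlap and the gene start distance. RefSeq gene starts and the flanking gaps in the other lists were added after the data were seen.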

Additional observations from a re-analysis of the deposited data

How the results depend on the processing

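Allowing 1 mismatch left 2 HoxD sites with a motif, of which 1 was on the plus strand; a reciprocal overlap of 80% left 0 pool F partners (8.97% of all conservative peaks kept one); and a distance of 1000 bp left 2 listed genes with a summit. The median log2 ratio of pool E over pool F was 0.50 over all ranked candidates of the window, which includes the 13 that failed. Other settings kept the counts within 1.5 times of those reported. The window held 10 summits in the combined list, 14 in pool E, 11 in pool F, 10 at an IDR of 0.01 and 8 among peaks above the list's median strength. The motif count was 5 to 9 with 3 mismatches, other distances or the matrix, and the count of plus-strand motifs 3 to 5. The count of genes was 8 or 9 at 20000 bp, in the other lists, from any transcript start and from RefSeq starts. The gap towards Lnpk was 350 to 355 kb and that towards Mtx2 248 to 249 kb over the 4 lists.

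No paired analysis was possible because technical replicates are merged in every list, and for the same reason no replicate was left out. Read depth is unknown, and a site without a peak was below detection in these lists, which does not show that it is unbound. Alleles of the hybrid strain and cell types of the muscle are not separated.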

Other observations

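Matches to the consensus without a summit were also present in HoxD. The window held 3 matches with 1 mismatch, and 2 of them had a summit within 50 bp, against 24.4% of 57894 such matches in the genome. The third lay in an exon of Gm28230 within Hoxd3, 20708 bp from site 10, where the ranked list behind the conservative list held 0 candidates. It is printed on its minus strand with the match in capitals.
Match without a summit, minus strand, chr2:74736633-74736662: agtgggcgCCAGTGGGGGGCAGagctagcc
Of 43 matches with 2 mismatches in the window, 5 had a summit within 50 bp, against 3.29% of 484486 in the genome. Among the 5 was the second match in the peak of site 1. The window also held more peaks per 100 kb, 5.08 against 1.65, and the part of density in these shares was not tested.

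The strongest site, site 9 between Hoxd9 and Hoxd8, had the lowest −log10 IDR of the 10 sites in the conservative ranking, 3.226, against 3.407 at the highest. The 2368 peaks at least as strong as site 9 had a median of 3.119, and all 42178 peaks past the threshold had a median of 3.286.

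Each pool's own ranked list also gives 2 inputs. What they are is not labelled, so their ratio cannot be read as agreement of replicates. The log2 ratio of strengths between them at the HoxD sites was −0.30 to 0.22 in pool E and −0.66 to 0.26 in pool F. The SD over all peaks past the threshold was 0.34 in each.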
